A study of Drosophila melanogaster with 2 samples.

Results

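The 8 Hox genes of Drosophila melanogaster (lab, pb, Dfd, Scr, Antp, Ubx, abd-A and Abd-B) were examined among 13968 protein-coding genes for regions bound by the Ribbon protein. The genes were taken by name, and every region whose summit lay in a gene body or within 20 kb on either side was assigned to that gene. The windows held 13 of the 4606 summits in the joint thresholded list, and each of the 13 fell in 1 window only. Both joint ranked lists together placed 18 distinct summits in the windows at a score of 830 or more.

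The data came from chromatin immunoprecipitation and sequencing of whole embryos aged 0 to 24 h, in 1 group with 2 biological replicates. The flies were transgenic, of the strain rib-GFP, in which an insertion targeting rib yields a rib-eGFP fusion. The precipitation used an antibody to GFP according to the sample descriptions, although the antibody field names rib. Every cell type and every embryonic stage was pooled in each library, so a region bound in few cells and one bound weakly in many cannot be told apart, and a control experiment named as possible in the labels was not used here. The signal of a region is its strength as the peak caller reported it, in a unit whose scaling is not stated. The score is the irreproducible discovery rate (IDR), the estimated share of irreproducible regions, rescaled to whole numbers up to 1000, where 830 stands for an IDR of 0.01 and 540 for 0.05. Positions are on 3R of dm6 and count from 1.

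Hox genes encode homeodomain transcription factors that give body segments their identity along the axis from head to tail. In the fly they lie in 2 complexes on the same arm, the Antennapedia complex with lab, pb, Dfd, Scr and Antp and the bithorax complex with Ubx, abd-A and Abd-B. Their domains are set up by early segmentation factors and are then maintained by Polycomb group repressors and Trithorax group activators, which act through DNA elements that can lie far from the promoters. Ribbon (rib) is a transcription factor that carries a BTB domain together with a DNA-binding domain of the Pipsqueak type, and it is known for shaping the embryonic trachea and salivary glands.

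The following sequences show the DNA under the summits that the results turn on: the strongest peak in the windows of Antp, Ubx, abd-A and Abd-B, the peak in the abd-A intron, the peak nearest to a start of a Hox gene, and 2 peaks in the bithorax complex outside the windows. Each is 121 bases of the plus strand centred on the summit, from the RefSeq Release 6 sequence. Capitals mark the words searched, on either strand: GAGAG, the core bound by GAGA factor and Pipsqueak, GCCAT, the core bound by Pleiohomeotic (Pho), CAGGTA for Zelda, TAATTA for homeodomains in general, TTTATG for Abd-B, TATCGATA for DREF, CGATA for BEAF-32 and GGTCACACT for core promoter motif 1.
Antp upstream, 3R:7000955-7001075: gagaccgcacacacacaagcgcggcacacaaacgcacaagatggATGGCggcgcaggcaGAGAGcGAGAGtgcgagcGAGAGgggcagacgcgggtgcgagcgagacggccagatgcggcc
Ubx intron, 3R:16702858-16702978: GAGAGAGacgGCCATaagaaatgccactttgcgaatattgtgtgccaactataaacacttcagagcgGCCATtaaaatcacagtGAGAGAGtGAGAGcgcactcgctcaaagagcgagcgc
bxd intron, 3R:16764182-16764302: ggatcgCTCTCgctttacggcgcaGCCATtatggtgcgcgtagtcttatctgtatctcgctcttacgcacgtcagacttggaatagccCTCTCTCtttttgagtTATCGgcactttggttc
abd-A intron, 3R:16811970-16812090: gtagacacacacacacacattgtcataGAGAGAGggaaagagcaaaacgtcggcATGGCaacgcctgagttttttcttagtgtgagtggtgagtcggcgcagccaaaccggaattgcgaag
iab8 intron, near abd-A, 3R:16847382-16847502: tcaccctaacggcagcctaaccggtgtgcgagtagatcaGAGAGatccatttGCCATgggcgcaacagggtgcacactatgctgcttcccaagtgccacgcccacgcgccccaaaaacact
iab8 intron, farther from abd-A, 3R:16869461-16869581: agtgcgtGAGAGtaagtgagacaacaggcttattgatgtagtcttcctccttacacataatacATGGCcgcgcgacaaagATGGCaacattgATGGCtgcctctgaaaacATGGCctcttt
Abd-B start, 3R:16960350-16960470: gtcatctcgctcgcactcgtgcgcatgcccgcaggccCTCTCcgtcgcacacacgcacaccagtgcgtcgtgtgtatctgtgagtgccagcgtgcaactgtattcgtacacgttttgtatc
CG18622 leader, upstream of Abd-B, 3R:16986586-16986706: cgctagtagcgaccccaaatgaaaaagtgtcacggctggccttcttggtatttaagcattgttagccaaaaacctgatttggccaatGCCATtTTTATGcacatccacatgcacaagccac

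Of the 13 summits in the Hox windows, 8 lay more than 500 bp from any protein-coding start, as did 2201 of the 4591 summits outside the Hox windows and complexes. A thresholded summit lay in the window of 5 of the 8 genes, while 73.1% of all protein-coding genes had one in theirs. Counting summits that lay 500 bp or less from an annotated transcription start site (TSS), 1 of the 8 genes had one, Abd-B, against 18.2% of all genes. A summit inside the gene body was found for 4 of the 8, Antp, Ubx, abd-A and Abd-B, against 13.4% of all genes. Hox genes are long, so these percentages cover genes of unlike length, and for gene bodies no share over genes of like length was taken. Among the 1788 protein-coding genes whose windows were as long as those of the Hox genes, from 50.6 to 143 kb, 78.0% had a summit, with a median of 2 summits and 3.65 summits per 100 kb. The Hox windows had a median of 1.5 summits and 1.12 summits per 100 kb. No test was made of these shares, since the study has 1 group and genes that share a region are not replicates.

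Regions past the score in either joint ranking raised the number of Hox genes with a region in the window to 7 of 8, against 75.1% of all genes, and lab was the gene without one. The number with such a region within 500 bp of a TSS stayed at 1, against 20.1%. In the list of replicate 1, 4 of 8 windows held a thresholded summit, against 62.6% of all genes, and no Hox gene had one at a TSS, against 13% of all genes. In replicate 2, 5 of 8 windows held one, against 56.1%, and again no Hox gene had one at a TSS, against 10.7%. The count at promoters was thus 0 or 1 in every list. The count over windows was above the share of all genes in 2 of these 4 lists and below it in the other two, and with 8 genes none of these differences was tested.

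**Figure D1:**
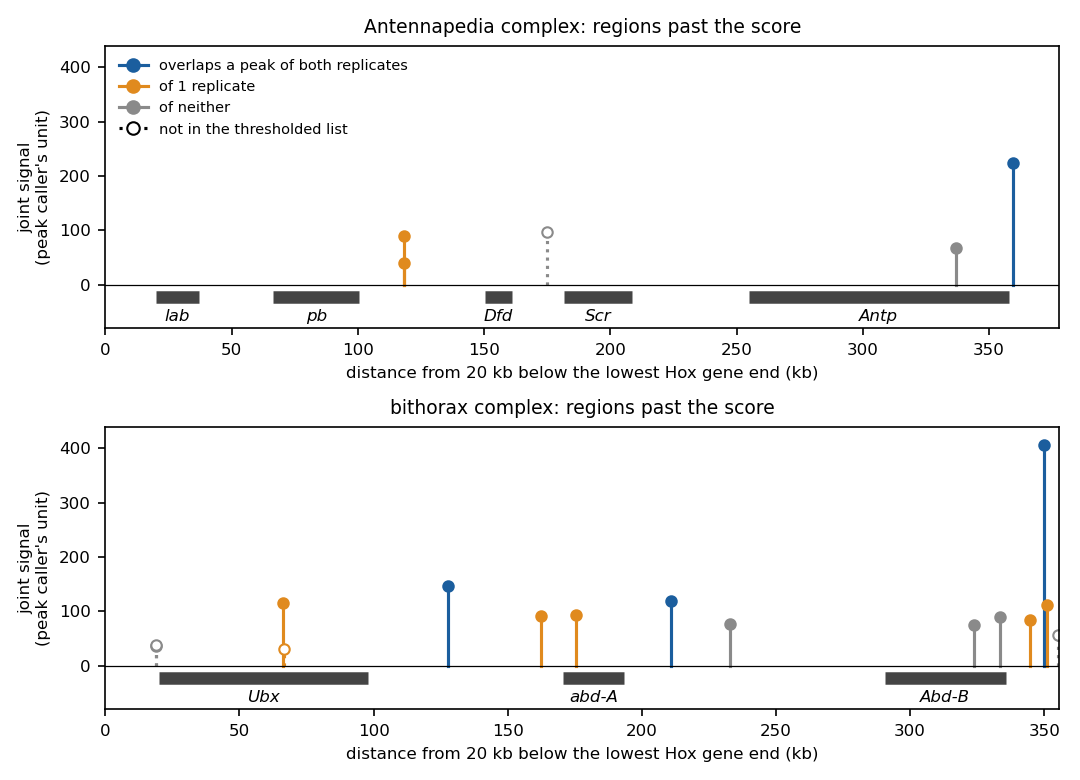
Regions past the score of 830 along the Antennapedia complex (top) and the bithorax complex (bottom), with the distance along the arm in kb on the horizontal axis and the joint signal in the peak caller's unit on the vertical axis; bars mark the Hox gene bodies, and colours whether the region overlaps a thresholded peak of both, 1 or neither replicate. The tallest peak, at 406, stands beyond the upstream end of Abd-B, and the stretch over Dfd and Scr holds a single region, which is not in the thresholded list.

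The 2 complexes differed in how many summits they held. From the outer ends of lab and Antp, the Antennapedia complex spans 338 kb and held 3 thresholded summits, or 0.888 per 100 kb. The 3 include the pair at 6759518 and 6759718, whose peaks overlap each other. The bithorax complex, from Ubx to Abd-B, spans 316 kb and held 8, or 2.53 per 100 kb. Summits beyond these ends are not counted, such as 7001015 upstream of Antp and 16986646 upstream of Abd-B. Arm 3R as a whole held 3.13 per 100 kb and all arms 3.35, so both complexes were below the mean density and the Antennapedia complex more so. The conservative joint list gave 3 and 6 summits in the 2 complexes. The list of replicate 1 gave 1 and 4, and that of replicate 2 gave 0 and 4, so the order of the complexes was the same in each list. The longest stretch without a thresholded summit in the Antennapedia complex ran for 219 kb, from 6759718 to 6978455, and contains Dfd, Scr, ftz and Ama. In the bithorax complex the longest ran for 90.9 kb, between 16869521 and 16960410.

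Density in the first joint ranking as a whole, with no limit on score, was also low around the Hox genes. The median protein-coding gene had 11.9 ranked regions per 10 kb of window. All 8 Hox genes were below it, from 2.83 at pb to 10.02 at Ubx. The 2 complexes contained 12 stretches of more than 10 kb without any region in either joint ranking, of which the longest were 46.5 kb reaching from ftz into Antp and 40.8 kb over pb. Over all arms, 1398 of the 107498 gaps between neighbouring regions of the first joint ranking alone exceeded 10 kb, or 1.30%. The median gap was 622 bp. Of the long gaps, 297 were near 40.8 kb or longer, so stretches of such length also occur elsewhere. No share of the gaps inside the complexes is set beside these values. The replicate rankings held regions inside both of the long stretches, 7 and 22 in the first and 20 and 5 in the second for replicates 1 and 2. All 12 stretches, which also touch lab, Dfd, Scr, Ubx and Abd-B, held a region of at least 1 replicate ranking. Whether the joint rankings list every region was not tested, so neither the low density around the Hox genes nor a missing joint region is a measured absence of binding.

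Among the members of the Antennapedia complex, lab, which patterns the posterior head and part of the midgut, had no thresholded summit in its window. The nearest was 80928 bp from a start of lab. The highest ranked region of its window had a signal of 66.8 and a score of 799, just under the threshold, and lay at 6657401 in the 5′ UTR of the neighbour CG1307. Replicate 2 had this region past the score, with a signal of 37.0 and a score of 841. In replicate 1 the highest region of the lab window was another one, with a signal of 42.7 and a score of 76.

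The window of pb, which specifies adult mouthparts, held 2 thresholded summits, at 6759518 and 6759718. The peaks overlap each other and merge into 1 region, so the 13 summits form 12 separate regions. Their joint signals were 89.5 and 39.0. Both overlapped the same region of each replicate, with a signal of 54.8 and a score of 852 in replicate 1 and a signal of 42.2 and a score of 98 in replicate 2. The summits are 17455 and 17655 bp upstream of the start of pb but only 52 and 252 bp upstream of bcd, the gene of the anterior morphogen Bicoid, which lies within the complex. Their place in the pb window follows from its 20 kb flank, and the window of pb was the only one of the complex whose summits all lay at the promoter of another gene.

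No thresholded summit lay in the windows of Dfd, which specifies maxillary and mandibular segments, or of Scr, which specifies the labial and first thoracic segments and directs salivary gland formation. The nearest thresholded summits were 32118 bp from the start of Dfd and 88787 bp from a start of Scr. Both windows shared 1 region that passed the score of 1 joint ranking only, at 6816363, with a joint signal of 97.3 and scores of 761 and 947 in the 2 rankings. It was in the conservative list but not in the other thresholded list, and lay in an exon of lncRNA:CR42651, 16 bp downstream of that gene's start. Its signal was 58.2 with a score of 548 in replicate 1 and 29.8 with a score of 52 in replicate 2, so neither replicate list contained it.

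Antp, which specifies thoracic identity, held 2 summits of unlike support. The stronger, at 7001015, had a joint signal of 224 and rank 332 of 4606. It was past the score in both replicates, with signals of 142 and 65.8, both at a score of 1000, and ranks of 281 and 891 in their own lists. It lay in an exon of lncRNA:CR45899, 1787 bp upstream of the outermost start of Antp, and was the second strongest of the 13. The other, at 6978455 in an Antp intron, had a joint signal of 67.4, and its replicate signals of 37.5 and 26.0 passed the score in neither. It was absent from the conservative list, where its ranking gave a score of 697.

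In the bithorax complex, Ubx, which specifies the third thoracic and first abdominal segments, had 1 thresholded summit. It lay in an intron at 16702918, 31508 bp downstream of the start, with a joint signal of 114 and rank 1527. Replicate 1 had the higher signal there, 71.3 against 50.9 in replicate 2. The score, which rates how reproducible a rank is and not how high the signal is, was 71 in replicate 1 and 1000 in replicate 2. The conservative list gave 3 further summits in the window, not all of them in separate regions. A second summit in the intron, at 16703125 with a signal of 31.0, belongs to a peak that overlaps the one at 16702918. A pair at the start of modSP, a serine protease gene downstream of Ubx, had signals of 35.6 and 38.3. The peaks of this pair overlap each other. The thresholded summit nearest to the start of Ubx lay outside its window, 29816 bp upstream at 16764242, in an intron of lncRNA:bxd. The bxd region is known for long-range regulatory elements of Ubx. This peak had a joint signal of 147, and both replicates passed the score of 830 there at 1000, with signals of 85.8 and 65.6.

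The window of abd-A, which specifies the anterior abdominal segments, held 3 summits, all far from its starts. The strongest, at 16847442, lay 17393 bp upstream of the outermost start in an intron of lncRNA:iab8 and of MSAmiP, with a joint signal of 119. Replicate signals were 69.4 with a score of 1000 and 46.8 with a score of 839, so both replicates passed. The summit at 16812030 lay in an intron of abd-A, 16075 bp downstream of the nearest start, with a joint signal of 92.8. Its signal was 75.5 in replicate 1, which passed at a score of 1000, and 20.8 in replicate 2, which did not at 213. The reverse held at 16798898, an intergenic summit 29207 bp downstream of the nearest start, with a joint signal of 90.9: replicate 1 had a signal of 33.4 and a score of 71, and replicate 2 a signal of 51.6 and a score of 1000. The conservative list had 1 of the 3, the one that both replicates supported. A further summit in introns of lncRNA:iab8 and MSAmiP, at 16869521, fell outside all windows and had a joint signal of 77.0. Neither replicate passed there, with signals of 44.7 and 28.4.

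Abd-B, which specifies the posterior abdomen and the genitalia, had the most summits, 5 in a window of 85.0 kb, and 83.0% of protein-coding genes had fewer. The median window over all protein-coding genes was shorter, at 42.2 kb. By density, Abd-B had 5.88 summits per 100 kb, and 63.6% of protein-coding genes had a lower value. The strongest of all 13 was in this window, at 16986646, with a joint signal of 406 and rank 93. The replicates gave 229.5 and 187.5, both at a score of 1000, with ranks of 92 and 95 in their own lists. This peak lay 14410 bp upstream of the outermost start of Abd-B but in the 5′ UTR of CG18622, 204 bp downstream of a start of that gene. A second summit in the CG18622 5′ UTR, at 16987707, had a joint signal of 112, and a summit in an intron of AhcyL2, at 16981188, had 84.5. Each of these passed the score in replicate 1 only, with 82.0 against 27.5 and 50.9 against 35.0 in replicates 1 and 2. A further region at 16991958, 80 bp upstream of EMC2B, had a signal of 55.9 and passed the score in 1 joint ranking, at 851, but was in no thresholded list. Of the 5 summits in the Abd-B window, 3 thus lay in neighbouring genes upstream. Which gene each summit acts on was not tested.

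The other 2 summits lay inside Abd-B. The one at 16960410 is the only summit within 500 bp of a start of any Hox gene, 129 bp upstream of the start at 16960281, which serves 1 of the annotated transcripts. Its joint signal was 74.0, at rank 3531 of 4606. Replicate signals were 56.8 with a score of 767 and 19.9 with a score of 52, neither past 830, and the second joint ranking gave 511, so the conservative list lacks it. The summit at 16970046, 1472 bp upstream of another Abd-B start, had a joint signal of 89.0 and replicate signals of 36.5 and 47.5, with scores of 531 and 501. It was in both joint lists but in neither replicate list. The single promoter call among the Hox genes therefore rested on the joint list alone.

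Over the 13 summits, joint signal ran from 39.0 to 406 with a median of 90.9, close to the median of 93.2 over all 4606. Of the 13, 5 were above that median, and 2 were among the 500 strongest. Both replicates had an overlapping thresholded peak at 3 of the 13 (23.1%), at 7001015, 16847442 and 16986646. Replicate 1 alone had one at 5, replicate 2 alone at 2 and neither at 3. The 5 include both summits upstream of bcd, which overlap the same replicate 1 region. Outside the Hox windows, 34.3% of summits were in both replicates, 27.8% in replicate 1 alone, 10.7% in replicate 2 alone and 27.2% in neither. Signal was higher in replicate 1 at 11 of the 13, and the median ratio of replicate 1 to replicate 2 was 1.44, against 1.38 over 4579 summits of the whole list with a region in each ranking.

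**Figure D2:**
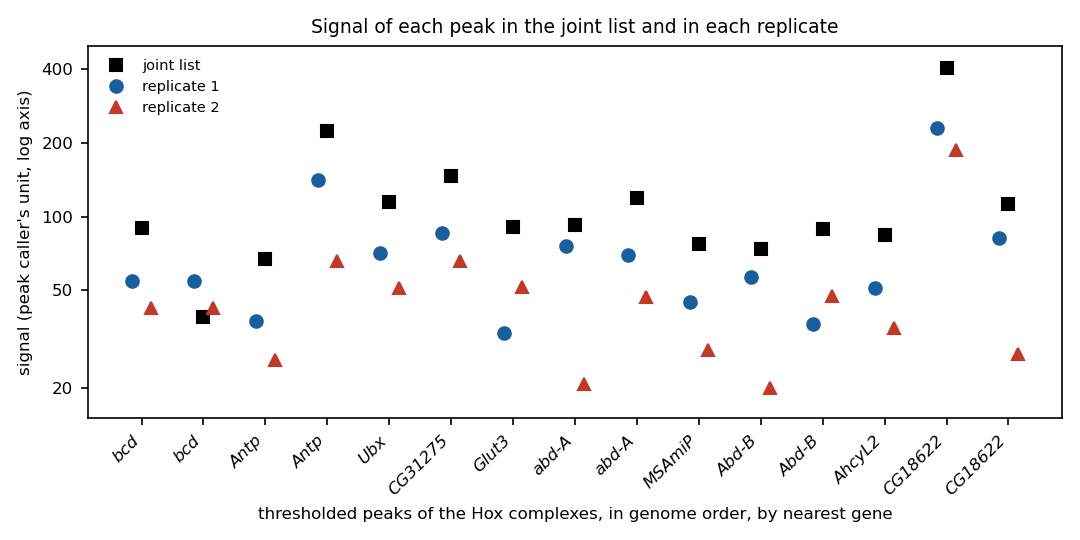
Signal in the joint list (squares), replicate 1 (circles) and replicate 2 (triangles) for the 15 thresholded peaks of the Hox windows and complexes, in genome order and labelled by the nearest protein-coding gene; the vertical axis is logarithmic, in the peak caller's unit. The peak at CG18622 with a joint signal of 406 is the highest in all 3 series, and by ratio the replicates lie farthest apart at the abd-A intron, with 75.5 and 20.8.

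Most promoters of Hox genes held ranked regions that fell short of the score. The 8 genes have 19 annotated starts, of which 17 had a region of a joint ranking within 500 bp. The strongest such regions had signals from 14.8 to 74.0, with a median of 43.5, beside a median of 43.3 over the 15191 of 19630 protein-coding starts that had a region. The ranking is deep, so a region at a start is common and is not a call of binding. Only the Abd-B start at 16960281 passed the joint score, at 950.

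The next highest by score was the start of Ubx, with a joint signal of 68.4 and a score of 764, and signals of 32.8 and 45.4 in replicates 1 and 2 with scores of 425 and 748. At the outermost abd-A start the joint signal was 69.5 at a score of 681, with replicate signals of 39.3 and 22.0. At the start of Dfd the joint signal was 54.4 at a score of 433, with 47.5 and 23.5 in the replicates. These 3 promoters were thus ranked but not called. The outermost start of lab and the only start of pb had no joint region, although replicates 1 and 2 had signals of 39.1 and 35.1 at lab, and replicate 2 had 19.0 at pb. The outermost Scr start had a joint signal of 53.7 at a score of 330. The 3 Antp starts had joint signals of 43.5, 38.5 and 17.6, the last at the outermost start, nearest to the strong peak at 7001015. No start of a Hox gene had a region past the score in either replicate ranking.

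**Figure D3:**
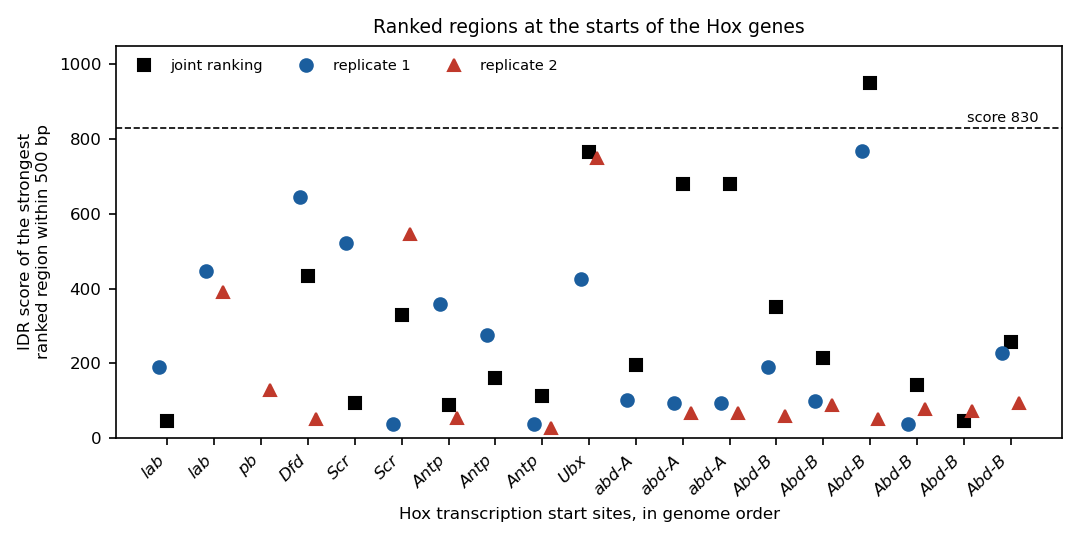
IDR score of the strongest ranked region within 500 bp of each of the 19 Hox starts, in genome order, in the joint ranking (squares) and in replicates 1 (circles) and 2 (triangles); a missing symbol means that no region was listed. The dashed line is the score of 830, which only the joint ranking at 1 Abd-B start exceeds, at 950.

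The words for Polycomb and Trithorax recruiting factors were frequent under the Hox summits. GCCAT, the core of the Pho site, was within 100 bp of 10 of the 13 summits (76.9%) and of 30.8% of the 4593 other summits. GAGAG, which GAGA factor and Pipsqueak bind, was within 100 bp of 7 of the 13 (53.8%) and of 34.8% of the others. Within 50 bp the shares were 61.5% against 16.8% for GCCAT and 46.2% against 19.2% for GAGAG. Pho and GAGA factor are known to bind many Polycomb response elements, the DNA elements through which these groups act. A match is a description of the letters, and no binding of either factor was measured here. Short words of this kind also depend on base composition, and the median GC content within 100 bp was 49.3% at the Hox summits and 44.3% at the others; the part of base composition in these shares was not tested.

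Both words together were within 100 bp of 5 of the 13 Hox summits (38.5%). Of the 8 thresholded summits of the bithorax complex, 6 had both, against 10.5% of the 4591 summits outside the Hox windows and complexes, and 11.1% of the 2201 of those that lay more than 500 bp from a protein-coding start. The printed Ubx intron sequence holds GAGAG 5 times, counting overlapping copies, and GCCAT 2 times. The bxd sequence holds GAGAG 3 times and GCCAT 1 time, and the farther iab8 sequence holds GCCAT 4 times beside 1 GAGAG. The Antp sequence holds GAGAG 3 times and GCCAT 1 time. The strongest peak, upstream of Abd-B, holds no GAGAG in its printed bases, and has GCCAT beside TTTATG, the word for Abd-B itself. The 8 summits were looked at as a group after the shares over the windows were known, and are described without a test.

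Of the other words, TTTATG was near 4 of the 13 summits (30.8%, others 16.5%) and CAGGTA, the word of the early activator Zelda, near 2 (15.4%, others 4.11%). Words of insulator and housekeeping promoter factors were also counted. CGATA, bound by BEAF-32, was near 1 (7.69%) and near 28.5% of the others. TATCGATA, bound by DREF, which contains CGATA, was near 0 of the 13 and 3.09% of the others. GGTCACACT, known as core promoter motif 1, was near 0 and 1.74%, and the homeodomain word TAATTA near 0 and 10.1%. With 13 summits, 1 more or less moves a share by 7.69 percentage points. No share of these other words was taken over only the summits more than 500 bp from a protein-coding start.

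**Figure D4:**
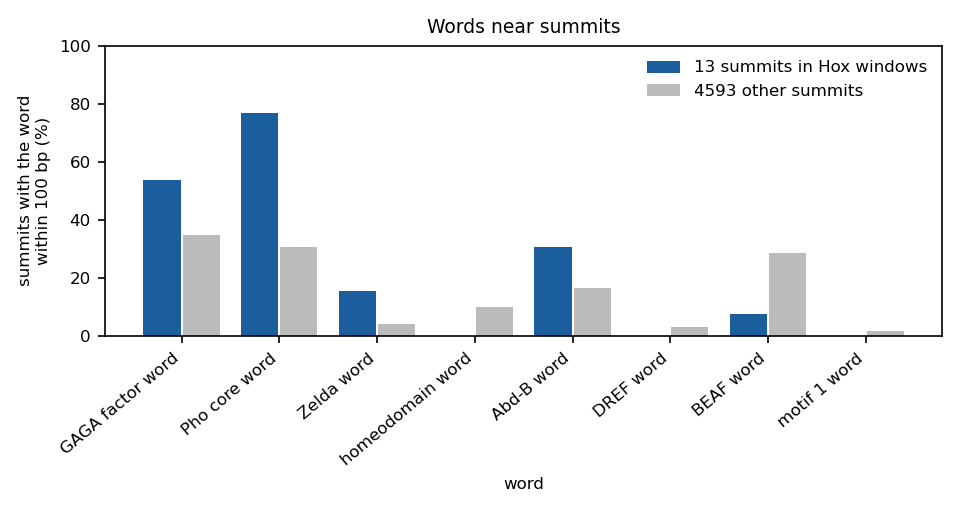
Percentage of summits with each word within 100 bp on either strand, for the 13 summits of the Hox windows (blue) and the 4593 other thresholded summits (grey). GCCAT, labelled Pho core word, stands at 76.9% against 30.8%, and CGATA, labelled BEAF word, at 7.69% against 28.5%.

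The neighbours inside the complexes were counted in the same way. Among 18 other protein-coding genes in the 2 complexes, bcd was the only one with a thresholded summit within 500 bp of a start, where 18.2% of all protein-coding genes had one. Of 5 non-Hox developmental genes of the Antennapedia complex (zen, zen2, bcd, Ama and ftz), 4 had a summit in their windows, against 73.1% of all genes, and it was the bcd pair in each case. ftz, a pair-rule gene, had none.

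Genes that act with, above or below the Hox genes were counted in the same way, where 18.2% of all genes have a summit at a start. Of 8 upstream regulators, kni, a gap gene, was bound at its start with a signal of 79.6, and hb, Kr, gt, tll, cad, eve and en had no thresholded summit at a start, although en had one past the score in a joint ranking. Windows of 4 of the 8 regulators held a summit, against 73.1% of all genes, and that of cad held 10 in 52.4 kb. Of 2 cofactors, hth, which brings Extradenticle into the nucleus, had 10 summits in its long window of 172 kb, and exd had none. For hth this was 5.81 per 100 kb, where the median over all genes was 4.51. Of the hth summits, 1 lay 185 bp upstream of a start, with a signal of 93.7. Of 10 known Hox target genes, 5 were bound at a start: Dll, the limb selector, with 309, fkh, a salivary gland factor controlled by Scr, with 215, ems with 108, wg with 105 and tsh with 79.9. The other targets dpp, salm, rpr, rho and kn had no summit at a start.

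Polycomb group genes were bound at a start for 6 of 16 found, against 18.2% of all genes. Among them were ph-p with 907, E(z) with 178, Sfmbt with 163 and Su(z)2 with 154. The weakest were Psc with 99.2 and Pc with 83.2, and the ph-p summit lay 491 bp from the start, near the limit of 500 bp. Trithorax group genes were bound for 4 of 8, against the same 18.2%. They were brm, the ATPase of the Brahma remodelling complex, with 573, Trl, which encodes GAGA factor, with 284, psq, which encodes Pipsqueak, with 197, and ash2 with 145. The same 500 bp window held a signal of at most 74.0 at any start of the 8 Hox genes. The other genes of both lists had no thresholded summit at a start, so the signals given here are those of bound genes only. These lists are short and were chosen with results of these data known, so their counts are descriptions.

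By the number of summits in windows of like length, the genes most like Abd-B were numerous. Of 669 protein-coding genes whose windows were within 25% of its length and did not overlap the Hox windows, 69 also had 5 summits. The first 5 of these by symbol were Bicra, Bsg, CAP, CG13917 and CG31145, in windows of 64.1 to 104 kb.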

How the data were processed

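Whole embryos of rib-GFP flies were profiled in 1 group of 2 biological replicates, and sonicated fragments had sizes of 200 to 800 bp, per the labels. The authors deposited ranked and thresholded region lists on dm6, for each replicate and jointly, with a conservative joint list. Signal in these lists was deposited as the peak caller gave it, and its scaling is not stated. The score deposited with each region was checked on the values and is a rescaled IDR, and in ranked lists the authors also gave the IDR as −log10. Which aligner and peak caller were used is not given in the sources used here. Read counts were not part of the lists, so depth is unknown and no interval is given. The replicates are separate only as far as the label of biological replicate says.

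Positions were moved to count from 1 and assigned with Ensembl release 115 (BDGP6.54), using Python 3.11.15, numpy 2.4.6, scipy 1.17.1, pandas 2.3.3 and matplotlib 3.10.9. Every region was counted by its summit, in gene bodies with 20 kb on either side and within 500 bp of each start. Joint peaks were matched to replicate regions by an overlap of at least 1 bp. Of the 4778 regions past the score in the first joint ranking, 172 were not in the thresholded list of 4606, so both joint rankings at 830 were also used. Calculations were tested on simulated data. No test was made, as there is 1 group. The genes named are the 8 members, each with its strongest peak and the peak nearest to a start, up to 4 strongest of each gene list, and the 5 genes most like the member with most summits. Weaker peaks of the members, the fifth bound Hox target, the weakest bound Polycomb group genes and unbound list members were named beyond this rule. The members, gene lists and words were chosen with earlier results of these data known. Of the 17 Polycomb group symbols, calypso found no match and was left out.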

Additional observations from a re-analysis of the deposited data

How the results depend on the processing

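The 13 summits in the Hox windows became 5, 6 and 8 with flanks of 0, 5 and 10 kb, and 17 with 50 kb. The conservative list also gave 13, but only 9 were the same summits and 4 were others, and a minimum signal of 10, chosen after seeing the data, also gave 13. With the list of a single replicate the count ranged from 6 (without replicate 1) to 8 (without replicate 2). The 1 gene with a summit at a start became 2 within 2000 bp, where Antp joined (a distance chosen after seeing the data), 0 in the conservative list and 0 without replicate 1 or without replicate 2. It stayed at 1 within 200 and 1000 bp. The 18 summits past the score, some of them in peaks that overlap each other, became 6 and 9 with flanks of 0 and 5 kb. They became 39 at a score of 540 and 10 at a score of 1000. The density over both complexes, 1.68 summits per 100 kb, was 0.612 without replicate 1 and 0.765 without replicate 2; shorter single-replicate lists lower it by construction. The count of 3 summits in both replicates was 3 under each alternative run. A count or density was held to have moved only when it left a set fold range around the main value. A share of a word had moved only when it left the confidence interval of the main share over 13 summits. By these rules, 15 of 30 alternatives for these counts, the strongest signal and the share with GCCAT moved the value and 15 did not. None of 17 more on single genes and words moved. Values held not to have moved could still differ, such as 17 summits for 13, or 61.5% for 76.9% with GCCAT. No paired analysis was possible because the study has 1 group, with no second group to share its replicate numbers. Depth is unknown, so an absent region cannot be read as absent binding.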
